A study of Mus musculus with 9 samples.

Results

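Motile cilium genes encode the parts of the beating cilium and the transcription factors that switch its program on. The 48 genes described here are a fixed list of symbols: axonemal dyneins, radial spokes, central pair and tektin genes, together with Foxj1, Rfx2, Rfx3 and Mcidas. They were matched by symbol to the Ensembl identifiers of the count table, and 48 of 48 were found among its 52550 genes. The list was drawn up with results of these mice already known, so the members' differences are given as descriptions. Their calls use a limit on the adjusted p, and no member's own p-value is printed.

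In the spinal cord, the ependymal cells that line the central canal are the cells known for motile cilia. Each such cilium is built on a ring of doublet microtubules around a central pair. Outer and inner dynein arms slide the doublets, radial spokes and the nexin link regulate the sliding, and dynein arms are preassembled in the cytoplasm before transport into the cilium. FOXJ1 and the RFX factors are known activators of these genes, and MCIDAS acts early in cells that will carry many cilia.

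RNA of adult female C57BL/6N mice was sequenced on day 7 after surgery, from a segment of cord that held the injury epicenter or the matching level. The 3 Sham mice had a laminectomy and no cord injury. The 3 SCI mice had a thoracic contusion after laminectomy and intraperitoneal dimethyl sulfoxide, the vehicle. The 3 SCI+FIPI mice had the same contusion and intraperitoneal FIPI, an inhibitor of both phospholipase D enzymes, from the injury until tissue was taken. No source used here gives Sham an injection, so SCI and Sham differ in the vehicle as well as in the injury.

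One library was made per mouse, with 20806000 to 24582377 counts assigned to genes. Levels are CPM, counts scaled to library size with TMM factors. Between genes they are FPKM, counts scaled to the total count without TMM factors, per kilobase of exon. A gene was called in a comparison when its log2 fold change was at least 0.5 in size and the quasi-likelihood test of edgeR gave it an adjusted p under 0.05 over 18699 genes. Of the members, 46 had enough counts to be tested. Mcidas had 10, 6 and 2 counts in Sham, 6, 4 and 0 in SCI and 1, 5 and 1 in SCI+FIPI. Spag17, a central pair gene, had 4, 4 and 10 counts in Sham, 4, 2 and 3 in SCI and 3, 2 and 2 in SCI+FIPI. Both were too low to compare.

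Promoter windows of RefSeq on build GRCm38.p6, from 250 bases before to 50 after the gene start, existed for 42 members. The core letters that RFX factors are known to bind, GTTGCC on either strand, was found in 19 of these 42 windows (45.2%) and in 14.1% of 27025 genes. The 100 bases before the start are printed for 5 of the 19, with GTTGCC or its complement GGCAAC in capitals. They were chosen to show these letters close to the start in genes of the central pair, doublet microtubules and inner arms.
Hydin, chr8:110266877-110266976, plus strand: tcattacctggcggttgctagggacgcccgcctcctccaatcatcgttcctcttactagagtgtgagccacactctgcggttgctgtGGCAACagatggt
Cfap44, chr16:44394699-44394798, plus strand: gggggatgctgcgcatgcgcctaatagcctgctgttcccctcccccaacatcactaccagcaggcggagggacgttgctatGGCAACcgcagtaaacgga
Cfap46, chr7:139683816-139683915, minus strand: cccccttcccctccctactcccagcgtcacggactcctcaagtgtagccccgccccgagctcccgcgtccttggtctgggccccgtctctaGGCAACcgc
Tekt2, chr4:126325689-126325788, minus strand: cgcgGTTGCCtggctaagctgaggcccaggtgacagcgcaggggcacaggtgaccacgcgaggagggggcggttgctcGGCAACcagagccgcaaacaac
Dnah10, chr5:124724985-124725084, plus strand: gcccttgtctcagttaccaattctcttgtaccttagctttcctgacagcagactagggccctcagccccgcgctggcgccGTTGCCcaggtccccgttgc

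Longer letters were rarer. GTTGCCAT, the core with its next bases, was in 2 member windows, Cfap44 and Tekt1 (4.76% against 1.54% of all genes). The FOXJ1 type forkhead letters GTAAACA were in 2 windows, Cfap43 and Ak7 (4.76% against 4.05%). Every GTTGCCAT match is also a GTTGCC match. A match in a window is a run of letters, and binding was not measured. Members with the core letters differed in both directions: among those printed, Cfap46 was lower in both injured groups and Hydin was lower with FIPI, while Tekt2 had positive log2 fold changes in every comparison.

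In uninjured cord the members were low. Mean FPKM in Sham had a median of 0.718 over the 48, and 19 members reached 1 FPKM. Foxj1, the master regulator of motile ciliogenesis, stood first at 19.1 ± 2.98 FPKM (SD, n = 3), 4.93 times the next member. Behind it came Rsph1 at 3.88 ± 0.685, Rsph9 at 3.44 ± 0.205 and Cfap69 at 3.27 ± 0.172, and the ranges of these 3 genes over the Sham mice overlapped. Rsph1 and Rsph9 encode radial spoke head proteins and Cfap69 a central pair protein. The lowest member was Spag17 at 0.0308 FPKM.

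After contusion the called members went in both directions. Between SCI and Sham 8 of 46 tested members were called, where 47.0% of all genes were called. The 4 higher were Rfx2, Cfap43, Cfap126 and Tekt4 (24.4% of all genes were called higher), and the 4 lower were Cfap69, Drc3, Cfap46 and Ccdc39 (22.5% were called lower). Without SCI mouse 1, 13 members were called, 10 of them lower, and with upper quartile factors 8 were called lower. Dnah11 and, less stably, Hydin were lower with FIPI: between SCI+FIPI and SCI 2 of 46 members were called, both lower, where 3.06% of all genes were called, 0.695% lower and 2.36% higher. The call of Dnah11 was kept in 20 of 20 alternatives and that of Hydin in 12. Foxj1 held nearly the same level in the 3 groups.

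**Figure D1:**
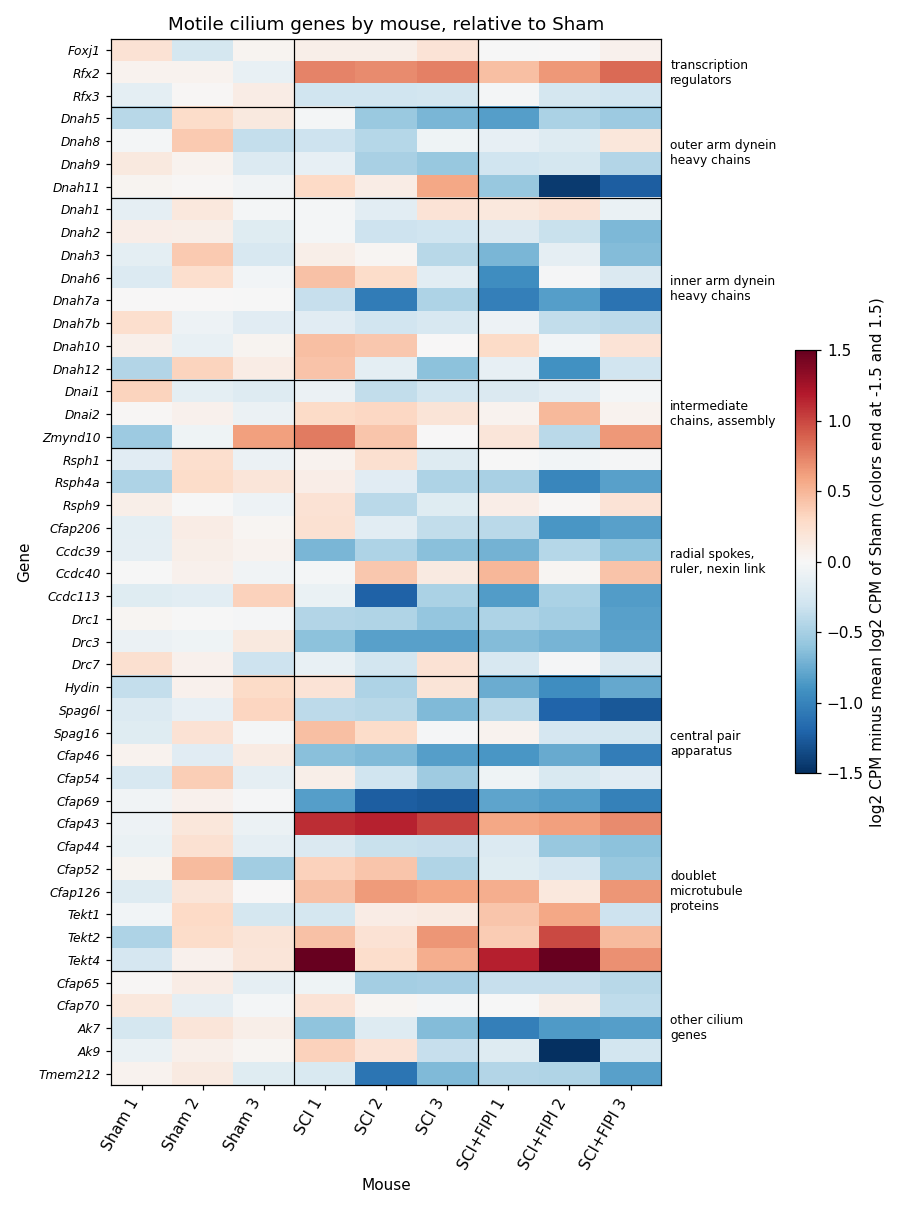
Heat map of the 46 tested members (rows, grouped by part of the cilium) in the 9 mice (columns); color is log2 CPM minus the mean log2 CPM of the 3 Sham mice, red above and blue below. Cfap43 and Rfx2 are red and Cfap69, Cfap46 and Drc3 blue in all 6 injured mice, and Dnah11 is blue in the 3 SCI+FIPI mice and red in the 3 SCI mice.

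Among the regulators, Foxj1 was at 57.5, 41.2 and 51.0 CPM in the Sham mice, 52.4, 52.6 and 56.9 in the SCI mice and 49.1, 49.6 and 51.9 in the SCI+FIPI mice. The Sham mice spread more widely than either injured group and spanned all of their values, and every SCI+FIPI mouse was just below every SCI mouse. The log2 fold change of Foxj1 was 0.11 (95% interval -0.09 to 0.32) in SCI against Sham, -0.10 (-0.31 to 0.10) in SCI+FIPI against SCI and 0.01 (-0.20 to 0.22) in SCI+FIPI against Sham.

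Rfx2, which works with FOXJ1 on ciliary promoters, was at 6.90, 6.91 and 6.14 CPM in Sham, 11.2, 10.9 and 11.3 in SCI and 9.12, 10.51 and 12.04 in SCI+FIPI. Both injured groups lay wholly above Sham and overlapped each other. Its log2 fold change was 0.74 ± 0.122 (SE) in SCI against Sham and 0.67 ± 0.123 in SCI+FIPI against Sham. Rfx3, a relative that also serves primary cilia, took the other direction after injury. It was at 14.6, 16.3 and 17.4 CPM in Sham, 13.1, 13.0 and 13.2 in SCI and 15.7, 13.4 and 13.1 in SCI+FIPI, with a log2 fold change of -0.30 ± 0.102 in SCI against Sham that was under the limit.

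The outer dynein arm, the main source of beat power, had 4 heavy chain genes in the list. Dnah11 was the member with the largest difference between the injured groups. Its counts were 45, 49 and 48 in Sham, 62, 55 and 75 in SCI and 31, 17 and 20 in SCI+FIPI, or 2.16, 2.12 and 2.01 CPM, 2.60, 2.27 and 3.16 CPM, and 1.39, 0.721 and 0.839 CPM. Every SCI mouse was above every Sham mouse, and every SCI+FIPI mouse was below them all. The log2 fold change was 0.36 ± 0.239 in SCI against Sham, -1.45 ± 0.26 in SCI+FIPI against SCI and -1.09 ± 0.267 in SCI+FIPI against Sham, the last a call as well. The SCI+FIPI mice therefore did not lie between the other groups but below both.

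The other outer arm heavy chains did not share this. Dnah9, the most abundant of the 4 per length, was at 6.47, 6.05 and 5.01 CPM in Sham, 5.33, 4.13 and 3.88 in SCI and 4.69, 4.83 and 4.28 in SCI+FIPI, and the injured groups overlapped. Dnah5 was at 2.16, 3.54 and 3.22 CPM in Sham, 2.85, 1.94 and 1.77 in SCI and 1.61, 2.08 and 1.97 in SCI+FIPI. It was called lower only in SCI+FIPI against Sham, at -0.66 ± 0.248, a call kept in 13 of 20 alternatives with values from -0.84 to -0.32. It was lost without Sham mouse 2 (-0.52), Sham mouse 3 (-0.60), SCI+FIPI mouse 1 (-0.56) or SCI+FIPI mouse 3 (-0.69). Dnah8 had log2 fold changes of -0.31 ± 0.281 in SCI against Sham and 0.24 ± 0.281 in SCI+FIPI against SCI, with all groups overlapping.

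None of the 8 inner arm heavy chains, which shape the waveform, was called in SCI against Sham or in SCI+FIPI against SCI. Of all genes, 47.0% and 3.06% were called in these comparisons. Dnah7b, the most abundant per length, was at 16.96, 13.4 and 12.6 CPM in Sham, 12.6, 11.6 and 11.98 in SCI and 13.5, 10.9 and 10.8 in SCI+FIPI. Dnah6, with the largest difference between the injured groups among the inner arm chains, was at 2.78, 3.84 and 3.13 CPM in Sham, 4.40, 3.93 and 2.87 in SCI and 1.65, 3.18 and 2.77 in SCI+FIPI, and the groups overlapped (log2 fold change -0.55 ± 0.243). Dnah7a was the only inner arm chain called in SCI+FIPI against Sham, at -1.05 ± 0.276. It was at 1.72, 1.73 and 1.71 CPM in Sham, 1.34, 0.786 and 1.22 in SCI and 0.805, 0.932 and 0.755 in SCI+FIPI. Its values are uncertain, since 40.3% of its 50-base stretches occur also in its copies Dnah7b and Dnah7c, and for Dnah7b the share is 48.4%. The 7 other inner arm chains had log2 fold changes from -0.53 for Dnah3 to 0.16 for Dnah10 in SCI+FIPI against Sham.

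The intermediate chain genes Dnai1 and Dnai2, which hold the outer arm to the doublet, and Zmynd10, an assembly factor, were not called in any comparison. Of all genes, 47.0% were called in SCI against Sham, 3.06% in SCI+FIPI against SCI and 38.1% in SCI+FIPI against Sham. Dnai1 was at 6.75, 4.84 and 4.68 CPM in Sham, 5.03, 4.13 and 4.39 in SCI and 4.60, 4.79 and 5.24 in SCI+FIPI. Zmynd10 was at 0.719, 1.04 and 1.71 CPM in Sham, 1.93, 1.49 and 1.10 in SCI and 1.25, 0.805 and 1.76 in SCI+FIPI. The mice of each group spread so widely that all groups overlapped. Dnai2 alone was apart after injury, at 6.69 to 7.43 CPM in Sham and 8.10 to 8.85 in SCI, with a log2 fold change of 0.27 ± 0.136.

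**Figure D2:**
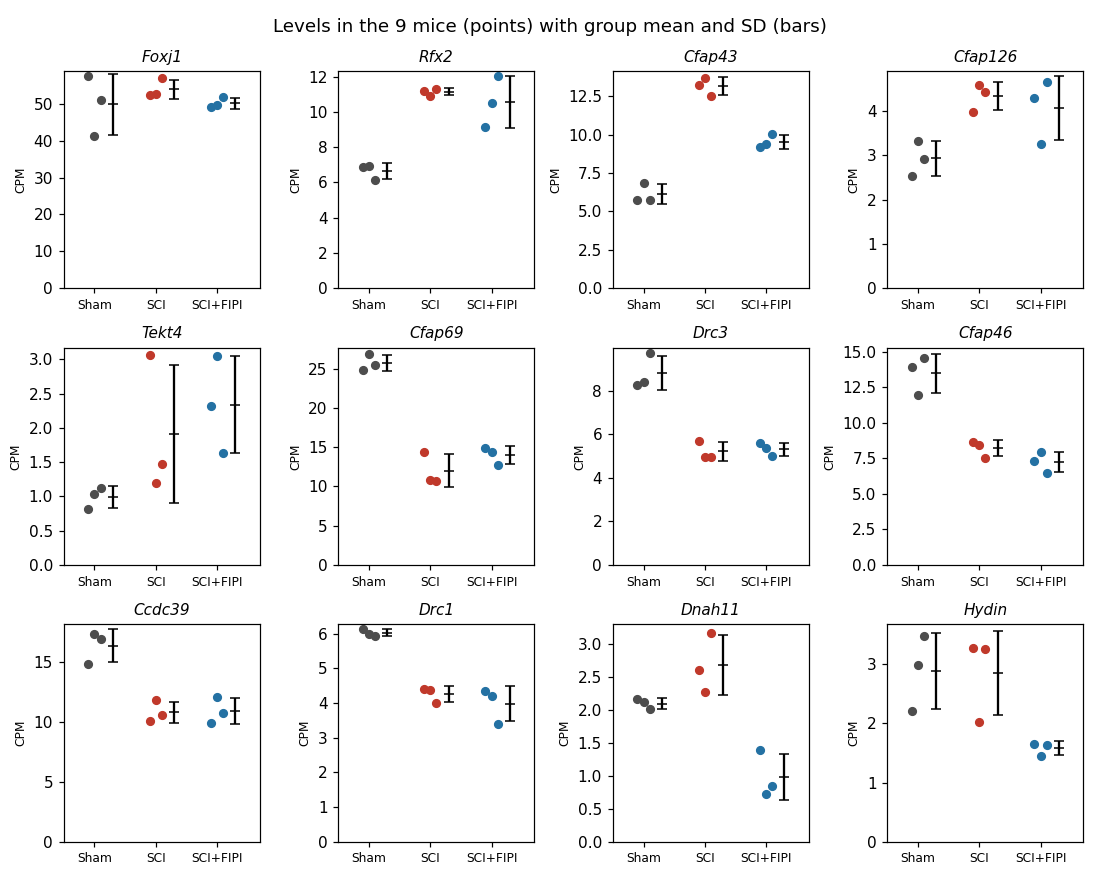
Levels of Foxj1, the members called in SCI against Sham or in SCI+FIPI against SCI, and Drc1, in CPM on axes from 0; each point is a mouse and the bars are the group mean and SD (n = 3). Foxj1 is flat, Cfap69 lies between 24.8 and 26.8 in Sham and at 14.8 or less in the injured mice, and Dnah11 and Hydin are lowest in the 3 SCI+FIPI mice.

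Radial spokes, the molecular ruler that sets their spacing and the nexin-dynein regulatory link made up 10 members. Ccdc39, the partner of Ccdc40 in the ruler, was at 14.8, 17.4 and 16.9 CPM in Sham, 10.1, 11.8 and 10.55 in SCI and 9.92, 12.1 and 10.7 in SCI+FIPI. Its log2 fold change was -0.60 ± 0.109 in SCI against Sham and 0.01 ± 0.111 in SCI+FIPI against SCI, and all 6 injured mice were below Sham. With offsets for GC content and length the values against Sham were -0.35 in SCI and -0.34 in SCI+FIPI, and neither was a call. Its partner Ccdc40 had log2 fold changes of 0.18 ± 0.171 and 0.16 ± 0.168 in these comparisons.

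Drc3 and Drc1, subunits of the nexin link, followed the pattern of Ccdc39. Drc3 was at 8.29, 8.42 and 9.74 CPM in Sham, 5.70, 4.96 and 4.98 in SCI and 5.59, 5.38 and 4.99 in SCI+FIPI (-0.76 ± 0.131 in SCI against Sham). Drc1 was at 6.13, 6.004 and 5.93 CPM in Sham, 4.40, 4.38 and 4.01 in SCI and 4.34, 4.20 and 3.40 in SCI+FIPI. Its log2 fold change of -0.50 ± 0.147 in SCI against Sham was just short of the limit before rounding, and -0.60 ± 0.148 in SCI+FIPI against Sham passed it. The 3 Sham mice were above the 6 injured mice in both genes. Drc7, another subunit, overlapped between all groups.

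Rsph4a and Cfap206 had their lowest values with FIPI. Rsph4a, a spoke head gene, was at 2.59, 4.36 and 4.10 CPM in Sham, 3.86, 3.18 and 2.57 in SCI and 2.55, 1.78 and 2.01 in SCI+FIPI. Cfap206, a radial spoke adaptor, was at 1.25, 1.51 and 1.42 CPM in Sham, 1.64, 1.24 and 1.05 in SCI and 1.03, 0.721 and 0.755 in SCI+FIPI. In both genes the SCI+FIPI mice were below every SCI and Sham mouse, though by a narrow gap. The log2 fold changes in SCI+FIPI against SCI were -0.60 ± 0.24 and -0.65 ± 0.288 and neither was called; in SCI+FIPI against Sham -0.81 ± 0.238 and -0.74 ± 0.287 were. The latter call of Rsph4a was kept in 20 of 20 alternatives and that of Cfap206 in 14; it was lost without Sham mouse 2 (-0.68), Sham mouse 3 (-0.73), SCI+FIPI mouse 2 (-0.64) or SCI+FIPI mouse 3 (-0.67). Rsph1 stayed at 4.65, 6.26 and 4.93 CPM in Sham, 5.45, 6.20 and 4.56 in SCI and 5.23, 5.09 and 5.16 in SCI+FIPI.

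Of the central pair genes, Cfap69 had the largest difference after injury, equal in size to that of Cfap43 in the other direction. Cfap69 was at 24.8, 26.8 and 25.4 CPM in Sham, 14.4, 10.9 and 10.7 in SCI and 14.8, 14.4 and 12.7 in SCI+FIPI. All 6 injured mice lay far below Sham, and the injured groups overlapped. The log2 fold change was -1.10 ± 0.114 in SCI against Sham, 0.22 ± 0.117 in SCI+FIPI against SCI and -0.88 ± 0.113 in SCI+FIPI against Sham. Cfap46 was at 13.9, 11.9 and 14.6 CPM in Sham, 8.64, 8.44 and 7.55 in SCI and 7.29, 7.93 and 6.50 in SCI+FIPI, with -0.72 ± 0.12 in SCI against Sham and -0.90 ± 0.122 in SCI+FIPI against Sham.

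Hydin, a very large central pair protein whose loss is known to cause hydrocephalus in mice, was at 2.20, 2.98 and 3.47 CPM in Sham, 3.27, 2.03 and 3.25 in SCI and 1.65, 1.44 and 1.64 in SCI+FIPI. Sham and SCI overlapped throughout, and the SCI+FIPI mice were below all of them. The log2 fold change was -0.02 ± 0.231 in SCI against Sham and -0.85 ± 0.245 in SCI+FIPI against SCI. The call of Hydin in SCI+FIPI against SCI was kept in 3 of the 9 fits that left out 1 mouse, with values between -1.05 and -0.73 over all alternatives; without SCI mouse 3 it was -0.75. That of Dnah11 was kept in 9 of 9, between -1.77 and -1.27 over all alternatives.

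Spag6l, a further central pair gene, was at 2.11, 2.25 and 3.09 CPM in Sham, 1.85, 1.82 and 1.52 in SCI and 1.83, 1.02 and 0.965 in SCI+FIPI. It was called in SCI+FIPI against Sham at -0.97 ± 0.275 and not in SCI against Sham at -0.52 ± 0.265. Spag16 and Cfap54 overlapped between the groups in every comparison.

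The 7 genes for proteins on or inside the doublet microtubules had 3 members called higher in SCI against Sham (24.4% of all genes were). The call of Cfap43 was kept in 20 of 20 alternatives, that of Cfap126 in 16 and that of Tekt4 in 12. In the 9 fits that left out 1 mouse they were kept in 9, 8 and 5. The median log2 fold change of the 7 genes was 0.43. Cfap43, which tethers an inner arm dynein together with Cfap44, was at 5.75, 6.87 and 5.72 CPM in Sham, 13.3, 13.7 and 12.5 in SCI and 9.16, 9.41 and 10.02 in SCI+FIPI. The 3 groups were wholly apart, with SCI+FIPI in between. Its log2 fold change was 1.10 ± 0.113 in SCI against Sham, -0.46 ± 0.109 in SCI+FIPI against SCI, which was under the fold limit, and 0.64 ± 0.115 in SCI+FIPI against Sham. Its partner Cfap44 was at 8.05, 10.1 and 7.86 CPM in Sham, 7.42, 6.82 and 6.75 in SCI and 7.46, 5.76 and 5.58 in SCI+FIPI, lower and not higher after injury (-0.31 ± 0.146).

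Cfap126, which positions basal bodies, was at 2.54, 3.33 and 2.93 CPM in Sham, 3.98, 4.59 and 4.43 in SCI and 4.29, 3.26 and 4.66 in SCI+FIPI (0.56 ± 0.182 in SCI against Sham). Tekt4, one of the tektins that form filaments along the doublets, was at 0.814, 1.04 and 1.13 CPM in Sham, 3.06, 1.20 and 1.48 in SCI and 2.32, 3.05 and 1.64 in SCI+FIPI. One SCI mouse was well above the other two: the log2 fold change in SCI against Sham was 0.93 ± 0.366, and without SCI mouse 1 it was 0.42 and no longer a call. Tekt4 had 1.22 ± 0.36 in SCI+FIPI against Sham. Tekt2 had 0.43 ± 0.266 and 0.63 ± 0.263 against Sham, and Tekt1 -0.01 ± 0.284 and 0.27 ± 0.279, none of them called. Cfap52, a protein inside the doublet, was at 1.58, 2.16 and 1.04 CPM in Sham, 1.97, 2.07 and 1.10 in SCI and 1.34, 1.27 and 1.01 in SCI+FIPI, and the groups overlapped.

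Of the remaining 5 members, Ak7 was called once. This adenylate kinase, of a kind that supplies nucleotides along the axoneme, was at 4.98, 6.82 and 6.39 CPM in Sham, 3.94, 5.25 and 3.80 in SCI and 2.91, 3.31 and 3.36 in SCI+FIPI. Its SCI+FIPI mice were below all others, with -0.44 ± 0.183 against SCI and -0.93 ± 0.18 against Sham, the latter a call. Ak9 was at 0.719, 0.821 and 0.794 CPM in Sham, 1.01, 0.910 and 0.591 in SCI and 0.671, 0.212 and 0.629 in SCI+FIPI, where the low value of 1 mouse rests on 5 counts. Tmem212 was at 1.29, 1.38 and 1.09 CPM in Sham, 1.05, 0.538 and 0.759 in SCI and 0.894, 0.890 and 0.671 in SCI+FIPI, below Sham in all 6 injured mice and not called. Cfap65 and Cfap70 were not called either.

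Over the whole list, 18 of 46 members had a positive and 28 a negative log2 fold change in SCI against Sham, with a median of -0.10 against 0 for all genes, which became 0.03 with offsets for GC content and length. In that comparison 6 members were higher in SCI without overlap and 10 lower, where 35.6% and 35.0% of all genes were apart in these directions. Between SCI+FIPI and SCI 15 were positive and 31 negative, with a median of -0.11. There 7 members were lower without overlap and 0 higher, where 14.5% and 15.7% of all genes were. By edgeR 0 members were called higher, and 0 had an unadjusted p under 0.05 in that direction; DESeq2 and limma-voom also called 0.

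**Figure D3:**
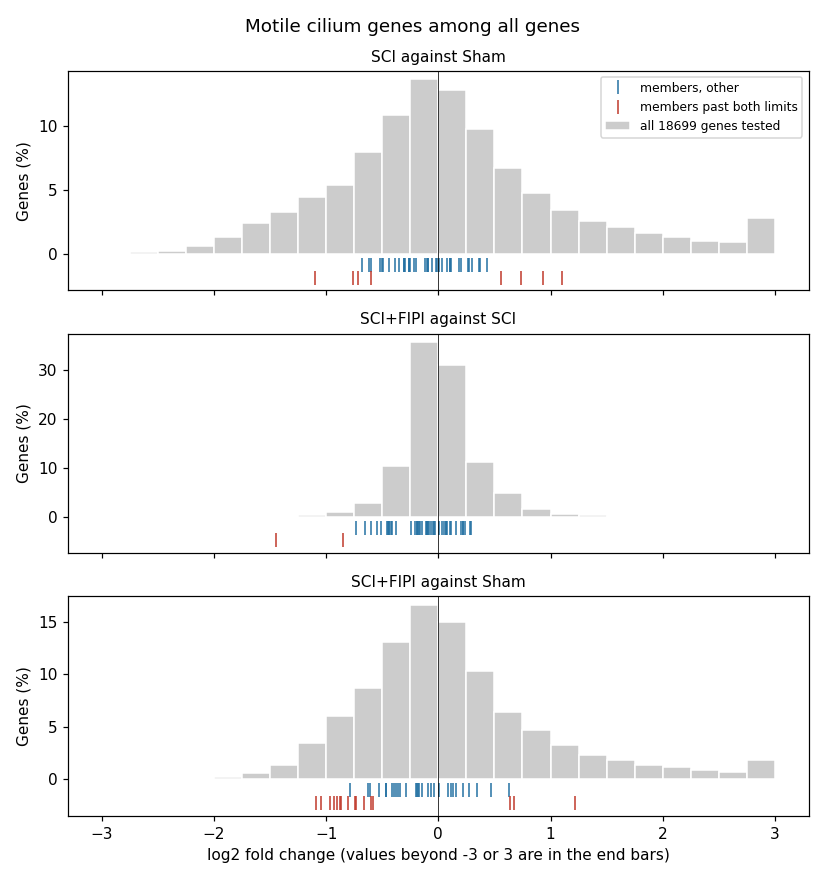
Histograms of the log2 fold changes of all 18699 genes tested (gray bars, percent of genes per bin of 0.25) for the 3 comparisons, with 1 tick per member below (red for members past both limits, blue for the others). The members lie between -1.10 and 1.10 in SCI against Sham and between -1.45 and 0.29 in SCI+FIPI against SCI, where the Dnah11 and Hydin ticks stand farthest to the left.

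Against Sham, 16 of 46 members were called in the FIPI-treated cord, where 38.1% of all genes were called. Of these, 13 were lower (28.3% of members, against 17.0% of all genes) and 3 higher (6.52%, against 21.2%). DESeq2 called 11 lower. The median was -0.35. The vehicle-treated cord had 4 lower and 4 higher, and 13 called in all without SCI mouse 1. Both comparisons use the same Sham mice, so their calls are not independent. In both, 4 members were called lower (Ccdc39, Drc3, Cfap46 and Cfap69) and 3 higher (Rfx2, Cfap43 and Tekt4). Called lower only in SCI+FIPI against Sham were 9: Dnah5, Dnah7a, Dnah11, Rsph4a, Cfap206, Drc1, Hydin, Spag6l and Ak7. Of these 9, the difference from SCI itself was past both limits for Dnah11 and Hydin. Their log2 fold changes in SCI against Sham ran from -0.62 for Dnah7a to 0.36 for Dnah11, with Drc1 at -0.50 and Spag6l at -0.52. How many of all genes were called in both comparisons or in only 1 was not counted, so these counts have no share beside them. In SCI+FIPI against Sham 20 members were lower without overlap and 4 higher (32.9% and 33.4% of all genes).

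Summed over the list, the level was 293 to 298 CPM in Sham, 261 to 284 in SCI and 248 to 258 in SCI+FIPI, and the 3 ranges did not overlap. Abundant members such as Cfap69 (-1.10 in SCI against Sham) weigh most in this sum, while the median member had -0.10 there. How often sums of other gene sets are apart in this way was not tested. The mice of a group differed among themselves. SCI mouse 1 had the highest value of its group in 29 of 46 members, and its median log2 ratio to the Sham mean was 0.02 against -0.18 and -0.28 in the other SCI mice. Without that mouse 10 members instead of 4 were called lower in SCI against Sham and the median was -0.28. In SCI+FIPI the 3 medians were -0.20, -0.26 and -0.34.

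Exons of 17 members overlap those of another gene, in 16 cases on the opposite strand. The protocol in the labels names a second strand marking buffer, and whether strand was used in counting is not given in the sources used here. Dnah11 shares 642 exonic bases with Cdca7l on the other strand, a gene that rose after injury (2.13, adjusted p = 1.89e-06, edgeR). Cdca7l was at 0.814, 1.64 and 1.67 CPM in Sham, 5.62, 6.12 and 6.58 in SCI and 5.50, 3.52 and 4.15 in SCI+FIPI. Its values, like those of Dnah11, were lower in SCI+FIPI than in SCI (-0.48, adjusted p = 0.179, edgeR). In SCI+FIPI against Sham Cdca7l was called higher (1.65, adjusted p = 4.18e-05, edgeR) and Dnah11 lower (-1.09). The part of shared reads in the Dnah11 difference was not tested. Ccdc39 shares 1256 bases with Ttc14, which had 84.3 to 89.4 CPM in Sham and 66.1 to 70.2 in SCI. Hydin shares 237 bases with Gm26832, which had 0 counts in every mouse. Cfap43 overlaps Itprip on its own strand by 246 bases, and Itprip was not analysed here.

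The count table held 39 more genes whose current or older symbol is of the same families (Cfap, Dnah, Dnai, Dnal, Dnaaf, Odad, Drc, Rsph and Tekt), of which 35 were tested. In SCI against Sham 2 rose (5.71%, against 24.4% of all genes) and 8 fell (22.9%, against 22.5% of all genes). One of the 8, Ppip5k2 (-0.91), is an inositol phosphate kinase gene that entered by its older symbol Cfap160, and it is also among those that fell in SCI+FIPI against Sham (-0.83). The 2 lowest, among genes of at least 1 CPM on average, were Tekt5 (-1.96 ± 0.168, adjusted p = 4.29e-07, edgeR) and Cfap99 (-1.86 ± 0.292, adjusted p = 4.98e-05, edgeR). Tekt5, a tektin best known from sperm flagella, was at 26.4, 24.6 and 26.6 CPM in Sham, 8.81, 4.80 and 6.41 in SCI and 10.7, 12.9 and 10.7 in SCI+FIPI. The 3 groups were apart, and Tekt5 was the 1 family gene called in SCI+FIPI against SCI (0.78 ± 0.173, adjusted p = 0.0174, edgeR), higher where Dnah11 and Hydin were lower. That is 2.86% of the family genes tested, against 3.06% of all genes. Cfap45, a protein inside the doublet, rose after injury (0.55 ± 0.184, adjusted p = 0.0164, edgeR). In SCI+FIPI against Sham 0 rose (21.2% of all genes did) and 7 fell (20%, against 17.0% of all genes). At an unadjusted p under 0.05 there were 2 higher, and DESeq2 and limma-voom also called 0 higher. Cfap61, a radial spoke gene, was the lowest (-1.31 ± 0.247, adjusted p = 0.000343, edgeR). The median of the 35 was -0.15 in SCI against Sham and 0.03 in SCI+FIPI against SCI.

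Motile cilia share further genes with the primary cilia of other cells. Of 29 genes of intraflagellar transport, the traffic along the axoneme, 6 fell and 0 rose in SCI against Sham (20.7% lower, against 22.5% of all genes), led by Kifap3 (-1.02 ± 0.0721, adjusted p = 1.39e-08, edgeR) and Kif3a (-0.83 ± 0.0601, adjusted p = 1.61e-08, edgeR), subunits of the kinesin that carries cargo to the ciliary tip. At an unadjusted p under 0.05, 1 of these genes was higher, and DESeq2 and limma-voom called 0 higher. Of 23 primary cilium and transition zone genes 8 fell (34.8%, against 22.5% of all genes) and 2 rose (8.70%, against 24.4%). Bbs4 of the BBSome (-0.92 ± 0.086, adjusted p = 2.26e-07, edgeR) was lowest, and Smo, the Hedgehog signal transducer, highest (1.06 ± 0.0655, adjusted p = 3.63e-09, edgeR). In SCI+FIPI against SCI edgeR, DESeq2 and limma-voom called 0 genes of either list, where edgeR called 3.06% of all genes. At an unadjusted p under 0.05 edgeR had 4 transport and 3 primary cilium genes, all higher. The kinesin and BBSome genes are used by neurons too, and their source was not tested.

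Upstream regulators of multiciliation were listed as 12 genes, of which Foxn4, Cdc20b and Deup1 were too low to test. Plk4, a kinase of centriole duplication, rose after injury (1.00 ± 0.146, adjusted p = 2.4e-05, edgeR), as did E2f4 (0.80 ± 0.0687, adjusted p = 9.63e-08, edgeR). Myb fell (-1.57 ± 0.376, adjusted p = 0.00201, edgeR), at 2.01, 3.50 and 1.71 CPM in Sham and 0.839, 0.786 and 0.802 in SCI. Gmnc, which acts upstream of Mcidas, fell as well (-1.30, adjusted p = 0.0242, edgeR) from 0.623 to 0.691 CPM in Sham to 0.124 to 0.419 in SCI, and DESeq2 called 1 of these falls. Plk4 and E2f4 also serve the cell cycle. With FIPI 0 of the 9 were called against SCI by edgeR, DESeq2 or limma-voom, where edgeR called 3.06% of all genes. At an unadjusted p under 0.05, 2 of the 9 were lower.

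**Figure D4:**
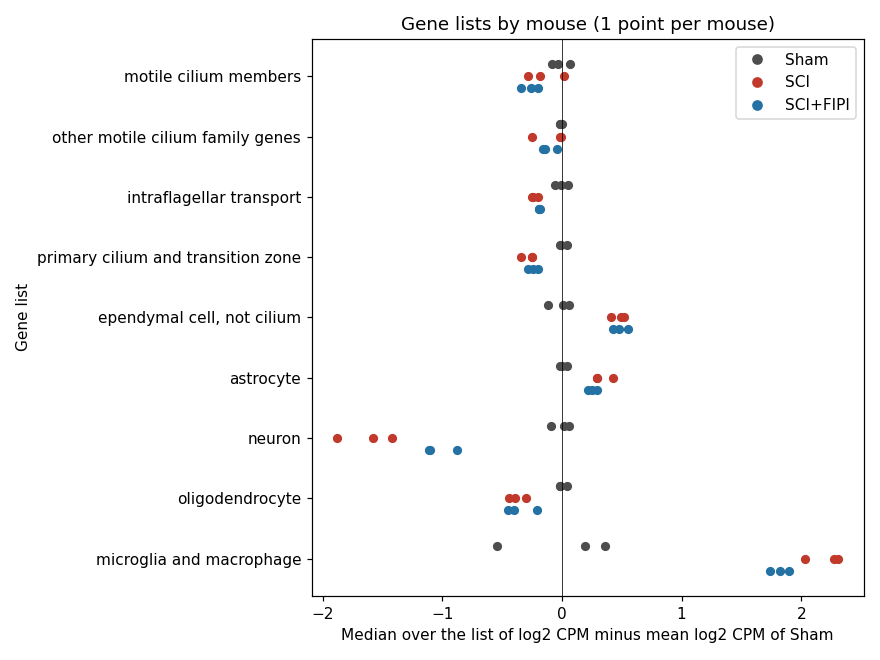
Median over each gene list of log2 CPM minus the mean log2 CPM of Sham, with 1 point per mouse (gray Sham, red SCI, blue SCI+FIPI). The motile cilium members lie between -0.34 and 0.02 in the 6 injured mice, while ependymal genes outside the cilium are above Sham in all 6 and neuron genes are below it.

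Beside the members, 10 genes that mark ependymal cells without being part of the cilium were described. Their fold changes cannot show which cells the members' reads came from. Of the 9 tested, 4 rose and 0 fell in SCI against Sham, where 24.4% and 22.5% of all genes were called higher and lower, and 0 had an unadjusted p under 0.05 in the lower direction. Ecrg4 rose by 1.42 on the log2 scale (adjusted p = 0.000457, edgeR), and Vim, which reactive astrocytes and other cells also express, by 2.54 (adjusted p = 5.19e-11, edgeR). Cd24a and Prom1, surface proteins of ependymal cells, had log2 fold changes of 0.10 ± 0.113 and 0.05 ± 0.083. Vit had 0.15 ± 0.11, so these 3 markers, like most members, were not called. Other ependymal markers were higher: Rarres2 rose by 0.54 (adjusted p = 0.00137, edgeR). Sox2 (0.42 ± 0.0933) and Hdc (0.94 ± 0.381) were not called, though every SCI mouse was above every Sham mouse. In all, 6 of the 9 were apart in this way, where 35.6% of all genes were. Tm4sf1 rose by 1.28 (adjusted p = 6.3e-07, edgeR), and it is expressed by endothelium too, of whose 4 markers 3 rose. Of 6 astrocyte markers 3 rose and 1 fell. How the ependymal genes outside the cilium and the members differed was not tested. Between SCI+FIPI and SCI edgeR, DESeq2 and limma-voom called 0 of the ependymal genes outside the cilium, where edgeR called 3.06% of all genes. At an unadjusted p under 0.05, 2 of them were lower. In whole tissue, fewer cells of a type and less RNA per cell cannot be told apart, and which cells gave each member's reads was not measured. Choroid plexus, another source of ciliated cells, was near absent: its list summed to 2.81 to 6.13 CPM over the 9 mice, and Otx2 had 0 counts in every mouse.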

How the data were processed

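Poly(A) RNA of each mouse was made into an Illumina library, with a second strand marking buffer per the labels, and the submitters' processing notes name GRCm38 and R 4.2.3. The aligner and counter are not given in the sources used here. The deposited file holds raw gene counts, which the authors did not normalize; its 9 columns were matched to the mice by name. Symbols, exonic lengths and overlaps came from GENCODE M21, in which 52403 of 52550 identifiers were found.

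Counts were fitted with edgeR 4.0.16 (R 4.3.3): filterByExpr by group, TMM factors (0.985 to 1.02), 1 mean per group over all 9 mice, robust quasi-likelihood tests and Benjamini-Hochberg adjustment over 18699 genes. Calls used the limits of the study, 0.5 and 0.05. The script was tested on simulated counts. FPKM was computed from counts and exonic length. Replicates are separate mice, and the biological coefficient of variation was 9.3%. An exact two-sided permutation test of 3 against 3 mice cannot go below p = 0.1, so none is given for single genes.

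Members and lists were chosen with earlier results of these data known. Values per mouse are given for Foxj1 and, in each part of the cilium, for the member with the highest mean FPKM in Sham and that with the largest difference between SCI+FIPI and SCI; the others shown were chosen because they were called or pair with a member that was. Of the other cilium lists, the genes called in SCI+FIPI against SCI and the 2 highest and 2 lowest could be named; Gmnc, Cfap45 and the marker genes stand outside or beside that choice. The results were recomputed with other scaling factors (RLE, upper quartile), with no filter or with 10 counts in every mouse, with a replicate block, with offsets for GC content and length, on the 2 groups alone, by DESeq2 1.42.0 and limma-voom 3.58.1, with no fold limit, and without each mouse in turn.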

Additional observations from a re-analysis of the deposited data

How the results depend on the processing

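With 3 mice a group and members of low count, small differences could not be told from the spread. The count of members called lower in SCI against Sham was 8 with upper quartile factors and 9 with no fold limit, where 13 members were called in all; leaving out 1 mouse gave 4 to 10 lower, 2 to 4 higher and 8 to 13 in all. The median in SCI against Sham became 0.03 with offsets for GC content and length, and also with the replicate block and those offsets together, where the median of all genes was 0.01; leaving out 1 mouse it ran from -0.28 to -0.03. In SCI+FIPI against Sham the median was -0.24 with the offsets and -0.23 with block and offsets. In SCI+FIPI against SCI 1 member, Dnah11, was called with limma-voom. Leaving out 1 mouse gave 1 to 2 members called there, 3 to 5 called higher in SCI+FIPI against Sham, and 0 to 2 family genes called in SCI+FIPI against SCI. The cause of these shifts was not tested. Same-numbered mice are different animals, and their deviations correlated between -0.0726 and 0.108, so the numbers did not pair them; with the replicate block 1 member was called in SCI+FIPI against SCI, Hydin being lost at -0.84. For single members 81 results were followed, those of Foxj1, the members called in any comparison and the members picked in each part of the cilium. Most of these results were not calls. Over the alternatives the outcome stayed in 1546 cases, while a call was lost in 39 and gained in 32.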

Other observations

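Marker lists of other cell types differed between the groups, and their part in the members' values was not tested. Neuron genes summed to 5835 to 6604 CPM in Sham, 1743 to 2510 in SCI and 2895 to 3456 in SCI+FIPI. In SCI against Sham 6 of 6 were called lower (22.5% of all genes were). In SCI+FIPI against SCI 5 of 6 were called higher (2.36% of all genes were). Oligodendrocyte genes summed to 28763 to 30259 CPM in Sham, 20772 to 23216 in SCI and 21236 to 25174 in SCI+FIPI. Astrocyte genes summed to 7828 to 8221 CPM in Sham, 11892 to 13693 in SCI and 12151 to 12673 in SCI+FIPI. Microglia and macrophage genes summed to 208 to 286 CPM in Sham, 1423 to 1714 in SCI and 1096 to 1327 in SCI+FIPI.

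Endothelium genes summed to 136 to 151 CPM in Sham, 315 to 356 in SCI and 239 to 314 in SCI+FIPI. Fibroblast genes summed to 257 to 649 CPM in Sham, 6620 to 9236 in SCI and 6021 to 8116 in SCI+FIPI. Schwann cell genes overlapped between all groups, at 211 to 446, 395 to 505 and 244 to 755 CPM. Bone genes summed to 11.6 to 11.9 CPM in Sham, 6.04 to 9.39 in SCI and 8.45, 16.3 and 27.9 in the SCI+FIPI mice. Of these genes Bglap was called higher in SCI+FIPI against SCI (2.28, adjusted p = 0.0486, edgeR), and Ibsp had 2.66 (adjusted p = 0.128, edgeR) with the groups apart. The part of bone in the members' values was not tested.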
